A study of Homo sapiens with 6 samples.

Results

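The expression of 10 clock genes, namely BHLHE40, BHLHE41, PER1, PER2, PER3, CRY1, CRY2, NR1D1, NR1D2 and DBP, was examined in the EndoC-βH1 human β cell line. The genes were found by symbol among the 60671 gene identifiers of the count files, and 10 of 10 were matched. They were selected on the comparison that is described here, since BHLHE40 was already known to be lower with AZD7762 in these samples. Differences between the groups in these 10 genes are therefore a description and are given without p-values. Bulk RNA-seq was performed on cells treated with 1 µM AZD7762, which inhibits the checkpoint kinases CHEK1 and CHEK2, or with DMSO alone, in 3 samples per group. In the kinase assay of the study, AZD7762 also inhibited many other kinases. Both groups were wild-type cells that were starved for 1 h in 0.5 mM glucose and then stimulated for 1 h, with the compound or DMSO present in both steps. The stimulation step used 0.5 or 20 mM glucose and the labels do not give which applied to each sample, nor which of the 2 library kits was used. EndoC-βH1 is an immortalized line, so the 3 samples of a group come from 1 genetic background. The methods of the study describe in vitro replicates as independent, and the labels do not say what was separate between these samples. RNA was taken at 1 time per sample, so levels at one moment and no rhythm were measured.

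The mammalian circadian clock is a feedback loop of transcription. CLOCK and BMAL1 (ARNTL) activate genes through E-boxes, the PER and CRY proteins that are made in turn repress CLOCK and BMAL1, the REV-ERB receptors (NR1D1 and NR1D2) repress ARNTL, and DBP activates genes through D-boxes. BHLHE40 and BHLHE41 (also called DEC1 and DEC2) are basic helix-loop-helix repressors that bind E-boxes and also respond within hours to outside signals such as hypoxia, growth factors and cAMP. In pancreatic β cells the clock is known for its part in the timing and size of insulin secretion.

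The libraries held between 20486391 and 29402440 counts. All 15 β cell markers passed the filter on low counts, with a summed level from 8127 to 9243 CPM with DMSO and from 8670 to 9135 CPM with AZD7762, and 1 of them, the transcription factor MAFA, was called higher, from 17.3 ± 3.41 to 40.4 ± 4.25 CPM. Markers of other islet endocrine cells summed to between 287 and 322 CPM with DMSO, against between 338 and 355 CPM with AZD7762, a shift whose part in the results was not tested. Of these 7 markers, 5 passed the filter, 0 were called, and PPY had at most 3 counts in any sample. Endothelial markers had at most 0.0339 CPM in sum over the 3 that could be matched, and CDH5 and KDR had no count. Fibroblast markers summed to between 14.2 and 19.8 CPM, duct and acinar markers to between 46.1 and 57.3 CPM, and leukocyte markers to between 1.71 and 2.62 CPM, with overlapping ranges in the 2 groups. CD3E, PRSS1 and CELA3A had no count, and PDGFRA, DCN, LUM and CD68 had at most 3 in any sample. In bulk samples, fewer cells with a transcript and less of it per cell cannot be told apart.

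The 250 bases before the start of each gene were taken from RefSeq promoters on GRCh38.p14, which list 13 promoters for the 10 genes. They were searched on both strands for the E-box CACGTG, the related CACGTT, the cAMP response element TGACGTCA, D-boxes (TTACATAA, TTACGTAA, TTATATAA and TTATGTAA), the core of ROR elements (TAGGTCA and TGGGTCA) and the AP-1 site TGANTCA. The E-box is the site that the clock activators bind and that BHLHE40 and BHLHE41 occupy as repressors. It was found before 4 of the 10 genes, BHLHE40, BHLHE41, PER1 and NR1D2, and in 6.34% of all 35116 promoters. Here and below, a gene was counted if any of its promoters held the motif, whereas the percentages are shares of single promoters. The promoters of these 4 genes are shown because they include the 2 members with the largest difference and 2 with a small one. Capitals mark the motifs found.
BHLHE40 (chr3:4979187-4979436, plus strand): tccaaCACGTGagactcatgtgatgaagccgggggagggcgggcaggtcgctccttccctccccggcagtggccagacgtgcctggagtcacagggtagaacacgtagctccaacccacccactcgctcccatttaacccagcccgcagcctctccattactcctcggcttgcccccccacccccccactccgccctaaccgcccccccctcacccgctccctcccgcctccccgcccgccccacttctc
BHLHE41 (chr12:26125038-26125287, minus strand): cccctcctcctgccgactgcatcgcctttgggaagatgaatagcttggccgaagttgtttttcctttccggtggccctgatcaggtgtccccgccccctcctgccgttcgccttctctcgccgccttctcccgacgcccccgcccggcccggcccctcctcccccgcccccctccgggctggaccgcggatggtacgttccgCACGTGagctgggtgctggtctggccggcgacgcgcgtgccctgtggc
PER1 (chr17:8152405-8152654, minus strand): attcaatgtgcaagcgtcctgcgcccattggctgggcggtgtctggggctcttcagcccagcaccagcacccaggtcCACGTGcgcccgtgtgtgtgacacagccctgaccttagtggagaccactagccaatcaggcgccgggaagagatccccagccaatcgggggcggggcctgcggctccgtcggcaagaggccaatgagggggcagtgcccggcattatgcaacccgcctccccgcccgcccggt
NR1D2 (chr3:23945871-23946120, plus strand, the second of its 2 promoters): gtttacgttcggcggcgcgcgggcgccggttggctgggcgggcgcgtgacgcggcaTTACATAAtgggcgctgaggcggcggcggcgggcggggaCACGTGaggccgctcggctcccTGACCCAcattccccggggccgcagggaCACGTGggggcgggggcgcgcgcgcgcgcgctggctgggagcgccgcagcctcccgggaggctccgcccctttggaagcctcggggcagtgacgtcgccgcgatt
The E-box began 245 bases before the start of BHLHE40, 48 before that of BHLHE41 and 173 before that of PER1, and NR1D2 had 2, at 155 and 105 bases. CACGTT was found before PER2, CRY1, CRY2 and NR1D1, and in 4.55% of all promoters. D-boxes lay before PER3 and NR1D2 (1.34% of all promoters) and the ROR core before CRY2 and NR1D2 (4.82%). The cAMP response element (1.65%) and the AP-1 site (6.57%) were found in 0 of the 10, and DBP had none of the 6 motifs. These are matches of letters in a short window, not measured sites.

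BHLHE40 was lower with AZD7762 in all 3 samples and had the largest difference of the 10 genes. BHLHE40 (ENSG00000134107) lies on chromosome 3 of GRCh37 from 5021122 to 5027008. It had 8.60, 5.81 and 8.44 normalized CPM (counts relative to the scaled library size) in DMSO replicates 1, 2 and 3, from 254, 158 and 176 counts. In AZD7762 replicates 1, 2 and 3 it had 2.74, 3.42 and 2.91 CPM, from 69, 72 and 62 counts. The lowest DMSO sample, replicate 2, lay above the highest AZD7762 sample. The DMSO mean was 7.62 ± 1.56 CPM against an AZD7762 mean of 3.02 ± 0.354 CPM (SD, 3 samples per group), and the fitted log2 fold change was -1.33 with a standard error of 0.171, which leaves 39.7% of the DMSO level. The 95% interval of the log2 fold change ran from -1.70 to -0.96. The transcript is not abundant in these cells, and its mean level stood at percentile 33.4 of the genes tested.

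BHLHE41, the paralogue of BHLHE40, was also lower in all 3 samples. BHLHE41 (ENSG00000123095, chromosome 12, 26272963 to 26277970 on GRCh37) had 6.36, 5.70 and 6.37 CPM in the DMSO samples. With AZD7762 it had 3.30, 2.99 and 2.67 CPM. The groups did not overlap, and the DMSO samples varied less than those of BHLHE40. The means were 6.15 ± 0.386 and 2.99 ± 0.313 CPM, and the log2 fold change was -1.03 with a standard error of 0.132 and an interval from -1.32 to -0.75, which leaves 48.9% of the DMSO level. In the ratio of BHLHE40 to BHLHE41 per exon length, the DMSO samples had 1.48, 1.12 and 1.45 and the AZD7762 samples 0.911, 1.25 and 1.19, so the ratios overlapped between the groups. Ordered by log2 fold change among the 17649 genes tested, BHLHE40 was number 9 and BHLHE41 number 25 from the lowest.

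**Figure D1:**
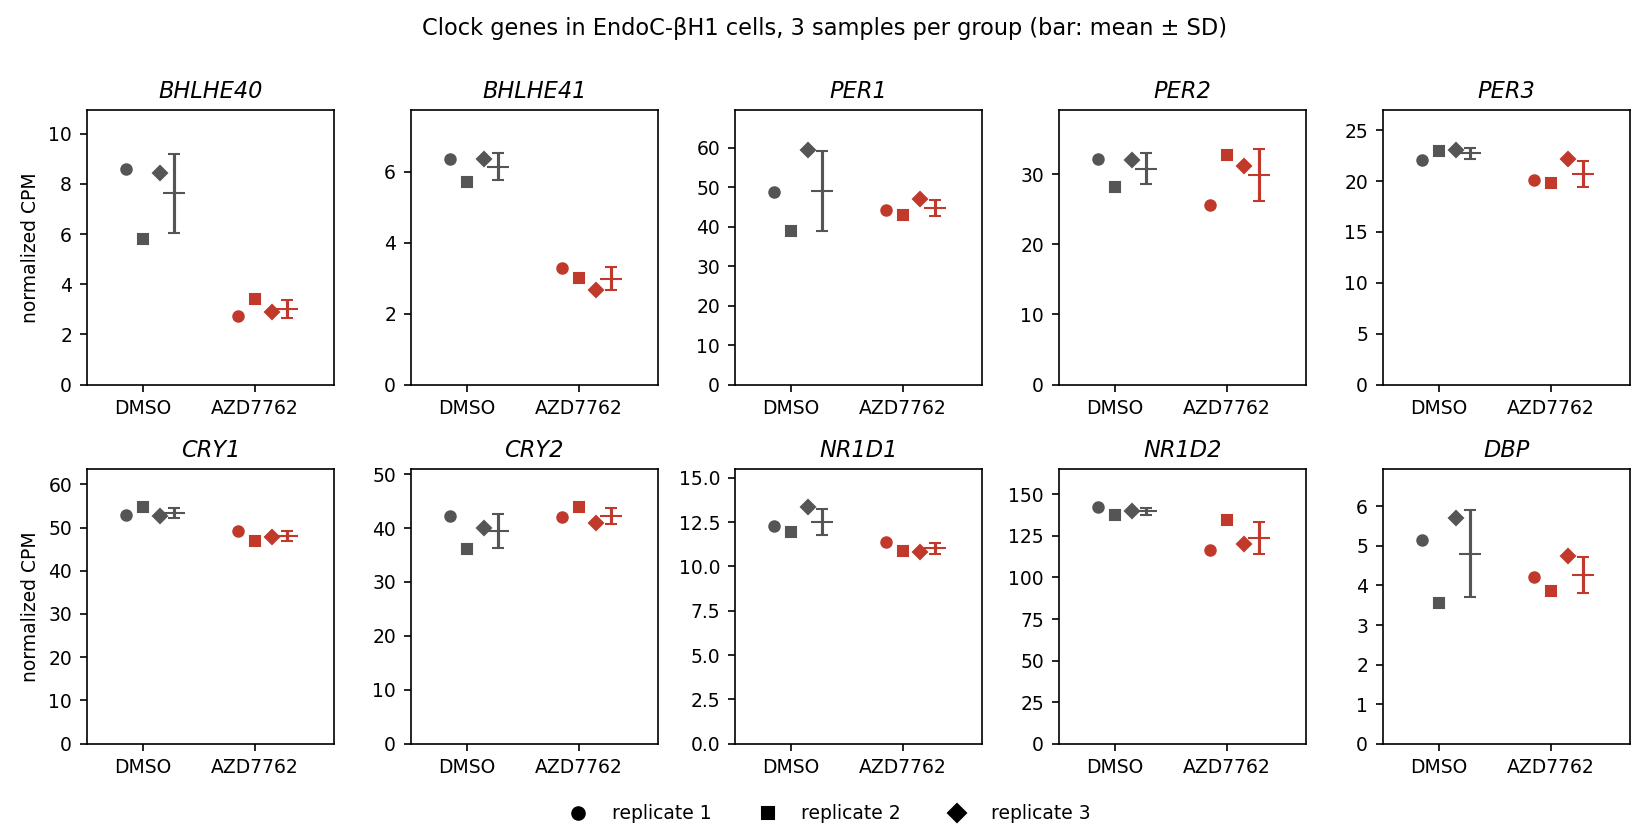
Normalized CPM of the 10 clock genes (y axes from 0) in the 3 DMSO and the 3 AZD7762 samples, with the mean ± SD beside the points. BHLHE40 and BHLHE41 lay at 2.67 to 3.42 CPM in the AZD7762 samples and at 5.70 to 8.60 CPM in the DMSO samples, whereas the other 8 genes had between 88.3% and 107% of their DMSO level.

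The PER proteins carry CRY proteins into the nucleus and repress CLOCK and BMAL1, and PER1 and PER2 are also known as genes that signals can induce at once. PER1 (ENSG00000179094, chromosome 17, 8043790 to 8059824) had 48.7, 39.0 and 59.4 CPM in the DMSO samples and 44.3, 43.0 and 47.1 CPM in the AZD7762 samples. The AZD7762 samples lay within the range of the DMSO samples. Its log2 fold change was -0.13 (interval -0.38 to 0.13), and without DMSO replicate 3, the highest sample, it was 0.03. PER2 (ENSG00000132326, chromosome 2, 239152685 to 239198743) had 32.2, 28.2 and 32.0 CPM with DMSO, against 25.7, 32.8 and 31.2 CPM with AZD7762. The groups overlapped, and the log2 fold change was -0.05 (interval -0.25 to 0.16), which became 0.05 without AZD7762 replicate 1. PER3 (ENSG00000049246, chromosome 1, 7844351 to 7905237), the member of the family that the loop depends on least, had between 22.1 and 23.1 CPM in the DMSO samples and between 19.8 and 22.2 CPM in the AZD7762 samples. Its highest AZD7762 sample lay just above its lowest DMSO sample, and the log2 fold change was -0.13 (interval -0.30 to 0.03).

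The cryptochromes are the strongest repressors of CLOCK and BMAL1. CRY1 (ENSG00000008405, chromosome 12, 107385142 to 107487327) had 53.0, 54.8 and 52.6 CPM with DMSO, against 49.2, 46.9 and 47.8 CPM with AZD7762. These groups did not overlap, and the difference was small, a log2 fold change of -0.16 (interval -0.29 to -0.03), or 89.7% of the DMSO level. CRY2 (ENSG00000121671, chromosome 11, 45868669 to 45904799) had 42.3, 36.2 and 40.0 CPM in the DMSO samples and 42.0, 43.9 and 40.9 CPM in the AZD7762 samples. It was the one member with a log2 fold change above 0, at 0.10 (interval -0.06 to 0.26), with overlapping groups. The ratio of CRY1 to CRY2 per exon length was 1.62, 1.96 and 1.71 with DMSO and 1.52, 1.39 and 1.52 with AZD7762, and each AZD7762 sample lay below each DMSO sample. The other ratios formed in this way, PER1 to PER2, PER3 to PER2, BHLHE40 to BHLHE41 and NR1D1 to NR1D2, overlapped between the groups.

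NR1D1 and NR1D2 encode the REV-ERB receptors, which bind heme and repress ARNTL. NR1D2 (ENSG00000174738, chromosome 3, 23986777 to 24022108) had the highest level per exon length of the 10 genes, and its values were 142, 138 and 140 CPM with DMSO, against 117, 134 and 120 CPM with AZD7762. Its highest AZD7762 sample, replicate 2, lay just below its lowest DMSO sample, and the log2 fold change was -0.18 (interval -0.32 to -0.04). NR1D1 (ENSG00000126368, chromosome 17, 38249046 to 38256842) had 12.3, 12.0 and 13.3 CPM in the DMSO samples and 11.4, 10.9 and 10.8 CPM in the AZD7762 samples. These groups did not overlap either, with a log2 fold change of -0.18 (interval -0.38 to 0.02). The ratio of NR1D1 to NR1D2 per exon length was 0.197 ± 0.0111 in the DMSO group and 0.197 ± 0.0181 in the AZD7762 group (SD, 3 samples each). DBP (ENSG00000105516, chromosome 19, 49133287 to 49140636), a direct output of the E-box loop, had 5.15, 3.57 and 5.70 CPM with DMSO, against 4.21, 3.85 and 4.74 CPM with AZD7762. The groups overlapped and the interval of the log2 fold change was wide, from -0.53 to 0.21 around -0.16. The log2 fold change of DBP was -0.35 without DMSO replicate 2 and -0.03 without DMSO replicate 3.

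At an adjusted p under 0.05 over all 17649 genes tested in edgeR's quasi-likelihood test, 2 of the 10 genes, BHLHE40 and BHLHE41, were called, both lower. Of all genes tested, 0.708% were called, 0.351% lower and 0.357% higher. All 10 genes passed the filter on low counts, and none of them had fewer than 57 counts in any sample. The groups did not overlap in 5 of the 10, all lower (BHLHE40, BHLHE41, CRY1, NR1D1 and NR1D2), where 8.25% of all genes tested did not overlap in this direction and 6.79% in the other. The log2 fold change was below 0 in 9 of the 10, with a median of -0.16, and in 47.6% of all genes tested, with a median of 0.01. As the comparison chose the genes, these counts are a description. For the 8 genes other than BHLHE40 and BHLHE41, the 95% intervals lay between -0.53 and 0.26 on the log2 scale. Values in DMSO replicate 2 were the lowest of the DMSO group for 8 of the 10 genes, and for 31.3% of all genes tested. Without this sample the log2 fold changes of BHLHE40 and BHLHE41 were -1.51 and -1.09.

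**Figure D2:**
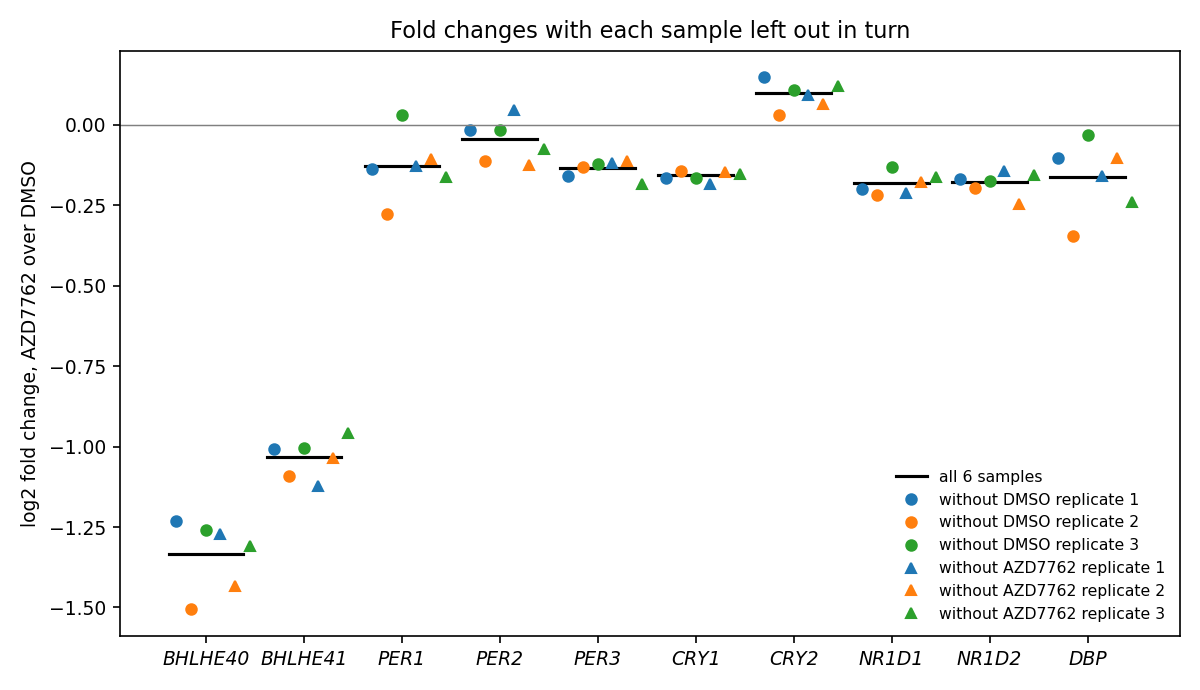
Log2 fold change of each clock gene (y axis, AZD7762 over DMSO) with all 6 samples (black line) and with each sample left out (points). BHLHE40 stayed between -1.51 and -1.23 and BHLHE41 between -1.12 and -0.96, and the points of PER1 and PER2 lay on both sides of 0.

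Levels of different genes were compared per kilobase of merged exon (FPKM). With DMSO the order ran from NR1D2 at 24.2 ± 0.378 FPKM (SD, n = 3) over CRY1 at 11.2 ± 0.242, PER1 at 7.01 ± 1.46, CRY2 at 6.37 ± 0.499, NR1D1 at 4.76 ± 0.274, PER2 at 4.35 ± 0.317 and PER3 at 2.80 ± 0.0651 to BHLHE40 at 2.17 ± 0.445, BHLHE41 at 1.60 (1.48 to 1.65 between samples) and DBP at 0.741 ± 0.171 FPKM. The range between the highest and the lowest was 32.6-fold. Among neighbours in this order, PER1 and CRY2 overlapped between samples, as did BHLHE40 and BHLHE41, and NR1D1 and PER2 lay next to each other with ranges that almost touched, the lowest NR1D1 sample at 4.55 and the highest PER2 sample at 4.54 FPKM. With AZD7762, BHLHE40 had 0.860 ± 0.101 and BHLHE41 0.776 ± 0.0813 FPKM, near DBP at 0.658 ± 0.0688 FPKM. When the longest coding length was used in place of the exon length, 6 of the 10 genes changed place, and DBP, whose coding length is 975 bases, stood above BHLHE41.

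**Figure D3:**
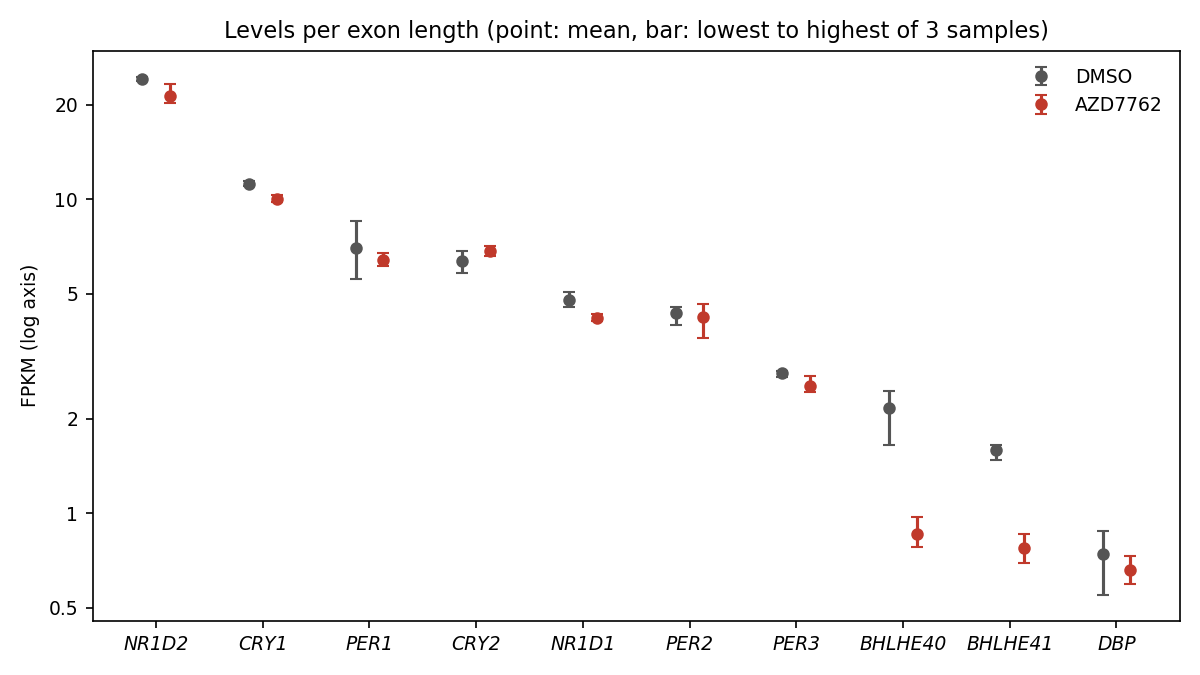
FPKM of the 10 clock genes (log axis) with DMSO and with AZD7762, ordered by the DMSO mean, where points are means and bars run from the lowest to the highest of 3 samples. NR1D2 stood highest at 24.2 FPKM with DMSO, and BHLHE40 and BHLHE41 lay at 0.860 and 0.776 FPKM with AZD7762.

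Several clock genes share exon sequence with a gene on the other strand, which matters because it is not given whether reads were counted by strand. BHLHE40-AS1 overlaps 12.8% of the exon length of BHLHE40 and had 1 count in DMSO replicate 1 and none in the other samples. SSPN overlaps 4.20% of BHLHE41 and had 0.816 ± 0.0452 CPM in the DMSO samples and 0.639 ± 0.543 CPM in the AZD7762 samples. THRA overlaps 18.0% of NR1D1 and was more abundant than it, from 66.8 to 69.2 CPM with DMSO and from 68.4 to 74.6 CPM with AZD7762. SPHK2 overlaps 10.2% of DBP and had 14.9 ± 4.16 and 16.0 ± 3.00 CPM. Genes of the other strand, UTS2 among them, overlap 16.6% of the exon length of PER3, and UTS2 had no count. It is not given how reads in the shared stretches were counted or set aside. Values of NR1D1, PER3, BHLHE40, DBP and BHLHE41 are therefore uncertain, also where the other gene had few or no counts. For NR1D1 and DBP the other gene was the more abundant one.

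The other genes of the clock were taken from 6 lists of 35 genes, 33 of which passed the filter on low counts. None of the 33 was called in edgeR's quasi-likelihood test, in its likelihood ratio and exact tests or in DESeq2's Wald test, and 4 of the 33 had an unadjusted p under 0.05 in the quasi-likelihood test, as did 1708 of the 17649 genes tested. Their median log2 fold change was -0.01. The activators showed no called difference. CLOCK had 50.8 ± 2.20 CPM with DMSO, against 48.0 ± 5.89 CPM with AZD7762 (log2 fold change -0.08), and ARNTL, listed as BMAL1 in the annotation, had 15.6 ± 2.28 and 16.3 ± 0.683 CPM (0.05). NPAS2, which can replace CLOCK, had the highest log2 fold change of the 4 activators, 0.07, at a low level of 1.25 ± 0.254 CPM with DMSO, and was at -0.19 without AZD7762 replicate 1 and -0.09 without DMSO replicate 1. The sign also turned for CLOCK without AZD7762 replicate 1 (0.0041) and for ARNTL without DMSO replicate 3 (-0.05). Of the ROR receptors, which activate ARNTL at the sites that the REV-ERB receptors repress, RORA and RORB had log2 fold changes of -0.06 and 0.02, the latter on either side of 0 when 1 sample was left out (-0.0061 without AZD7762 replicate 3 and -0.0013 without DMSO replicate 1). Among the other D-box factors, TEF, an activator like DBP, had 0.13 (0.03 without DMSO replicate 2) and NFIL3, a repressor at the same sites, -0.09 (-0.03 without AZD7762 replicate 1).

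The kinases and ubiquitin enzymes set how long PER and CRY proteins last. Of 11 genes, CSNK2B, the regulatory subunit of casein kinase 2, had the highest log2 fold change, 0.24, from 29.7 ± 0.657 to 35.0 ± 2.60 CPM (adjusted p = 0.263, edgeR). CSNK2B shares 27.5% of its exon length with genes of the same strand and 4.54% with a gene of the other strand. FBXL21, listed as a pseudogene in the annotation, had the lowest, -0.43, at 2.12 ± 0.335 CPM with DMSO (adjusted p = 0.493, edgeR). CSNK1D and CSNK1E, the kinases that mark PER proteins for decay, had log2 fold changes of 0.01 and 0.04, and both were at -0.01 without AZD7762 replicate 1. The 6 partners of the clock complexes lay between -0.15 for SIRT1, a deacetylase, and 0.08 for SFPQ, which binds PER complexes. Of 8 clock-controlled output genes, 7 passed the filter. CIART, an E-box gene that represses CLOCK and BMAL1, had the lowest log2 fold change, -0.43, from 7.24 ± 0.661 to 5.40 ± 1.29 CPM (adjusted p = 0.390, edgeR), with overlapping groups. Without AZD7762 replicate 3 it was -0.27. TSC22D3 had -0.17 with groups that did not overlap (adjusted p = 0.390, edgeR), and WEE1, a cell cycle kinase, had the highest, 0.05, which turned to -0.03 without AZD7762 replicate 2.

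**Figure D4:**
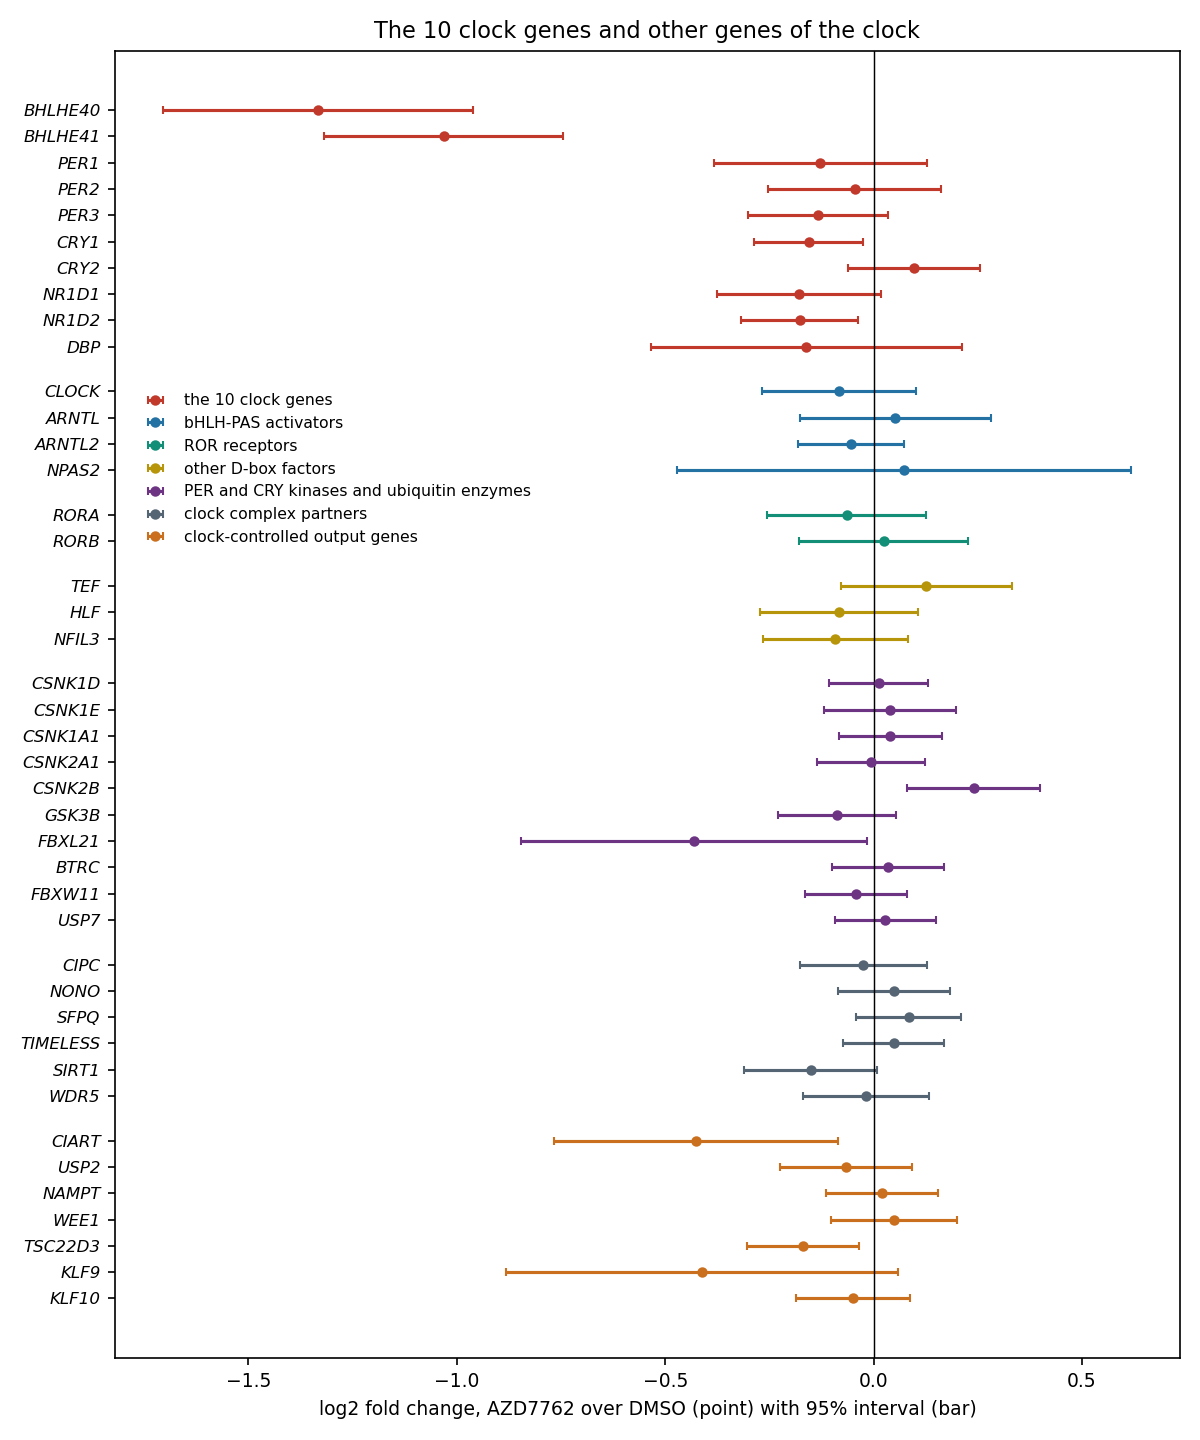
Log2 fold change (x axis, AZD7762 over DMSO) of the 10 clock genes and of other genes of the clock from 6 lists, with bars for the 95% interval. BHLHE40 at -1.33 and BHLHE41 at -1.03 lay apart from the other genes shown, which ran from -0.43 to 0.24.

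BHLHE40 is known to be induced by hypoxia, and PER1 by glucocorticoids, so a list of genes induced by each was examined. Of 12 hypoxia-induced genes, 9 passed the filter and 0 were called by edgeR's quasi-likelihood test, where 0.708% of all genes tested were called. An unadjusted p under 0.05 was found for 3 of the 9 and for 1708 of all 17649 genes tested, and the median log2 fold change of the 9 was 0.03. The highest was ANKRD37 with 0.87 at a low level and with UFSP2 over 40.4% of its exon length, from 0.754 ± 0.175 to 1.36 ± 0.271 CPM (adjusted p = 0.252, edgeR), and the lowest was VEGFA, the vascular growth factor, with -0.17, from 424 ± 3.54 to 377 ± 6.65 CPM (adjusted p = 0.290, edgeR). ADM, which encodes adrenomedullin, had the other unadjusted p under 0.05, at 0.47 on the log2 scale (adjusted p = 0.262, edgeR). Of 8 glucocorticoid-induced genes, 7 passed the filter and 3 were called, all higher, with a median of 0.05, where 0.357% of all genes tested were called higher. These were DUSP1, a phosphatase of MAP kinases that is also an immediate early gene, from 79.3 ± 17.8 to 255 ± 22.5 CPM, or 1.69 on the log2 scale (adjusted p = 9.58e-06, edgeR), PDK4, which inhibits pyruvate dehydrogenase, with 1.20 (adjusted p = 2.62e-05, edgeR), and SGK1, a kinase of ion transport, with 1.10 (adjusted p = 0.000187, edgeR). The other 4 were not called. The log2 fold change was above 0 in 5 of the 7 and below 0 in 2, KLF9 and TSC22D3, which are also among the clock-controlled output genes. KLF9 had the lowest, -0.41, at 1.75 ± 0.269 CPM with DMSO. TSC22D3 had -0.17 with groups that did not overlap (adjusted p = 0.390, edgeR). An unadjusted p under 0.05 in the quasi-likelihood test was found for 4 of the 7. Both the hypoxia and the glucocorticoid list were chosen with earlier results of these data known, so the counts in them are a description only.

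The 5 genes whose pattern over the 6 samples was most like that of BHLHE40 were MAFF, RHOB, BHLHE41, DDIT3 and SOX4. Likeness was the root mean square difference of the log2 CPM after centring each gene on its mean, and it was 0.08 for MAFF, 0.20 for RHOB, 0.23 for BHLHE41, 0.25 for DDIT3 and 0.25 for SOX4. MAFF, a small MAF transcription factor, had 11.6, 8.42 and 10.6 CPM in the DMSO samples and 3.62, 4.33 and 4.13 CPM in the AZD7762 samples. As with BHLHE40, DMSO replicate 2 was its lowest DMSO sample and AZD7762 replicate 2 its highest AZD7762 sample. The log2 fold changes of MAFF, RHOB, DDIT3 and SOX4 were -1.35, -1.52, -0.999 and -0.90, and each of them was lower in all 3 AZD7762 samples than in any DMSO sample. Of all genes tested, 8.25% did not overlap in this direction. The 5 genes were chosen among 13877 for their likeness to BHLHE40 over these same 6 samples. Their direction, the lack of overlap and the shared order of replicates follow from that choice and are a description only. DDIT3 shares 31.6% of its exon length with genes of the other strand.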

How the data were processed

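RNA-seq was performed on 6 samples of EndoC-βH1 cells, grouped by treatment from their titles. The authors checked the reads with FastQC 0.10.1, trimmed them with cutadapt 1.18 and mapped them to GRCh37, and HTSeq-count was used for counting. Each deposited file holds the raw counts of 1 sample per gene. The aligner, the strand setting and the annotation release are not given in the sources used here.

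Symbols, positions and exon lengths came from GENCODE v44lift37 on GRCh37, which matched 58646 of 60671 identifiers. Genes with low counts were removed with filterByExpr, and counts were scaled with TMM factors (0.983 to 1.02) and tested with the quasi-likelihood test of edgeR 4.0.16 in R 4.3.3, with Benjamini-Hochberg adjustment over the 17649 genes left. The standard error is the absolute log2 fold change over the root of F, and intervals use the residual and prior degrees of freedom of the fit. Log2 CPM used a prior count of 2. A count of 3 corresponded to at most 0.146 CPM, a limit that covers counting error only. Replicates differed by more than sampling noise (chi-square per gene 4.51 to 8.62). The methods of the study describe in vitro replicates as independent and the labels name no separate cultures, so p-values measure the spread between these samples, part of which may be technical. DESeq2 1.42.0, other tests, scalings and filters, the replicate number as a block, trends with GC content and length, and leaving out each sample were alternatives. The procedures were tested on simulated counts.

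The clock genes and the lists were chosen with earlier results of these data known. Named genes are the 10 clock genes, genes that overlap them, the called, nominally different and extreme genes of the 6 clock lists (whose other genes could be named), the called and extreme genes of the hypoxia and glucocorticoid lists, and the 5 genes most like BHLHE40 whose mean log2 CPM is 1 or more. MAFA and ADM were named outside this rule, after their values were seen. PECAM1 could not be matched. Some genes of the lists are counted but not reported here.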

Additional observations from a re-analysis of the deposited data

How the results depend on the processing

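BHLHE40 and BHLHE41 were called, and no other of the 10 clock genes, in each of the 17 alternatives, with log2 fold changes from -1.51 to -1.23 and from -1.12 to -0.96. The other 8 were called in 0 of them, and the signs of PER1 and PER2 changed only in the fits named above. Sizes of the small differences also moved. After removal of trends with GC content and gene length, CRY1 went from -0.16 to -0.12 and NR1D2 from -0.18 to -0.12. In the same fit NR1D1 went from -0.18 to -0.24. With library totals as the only scaling, CRY1 was at -0.19. Against 125 genes called in all, 330 were called without the low-count filter, 267 by the likelihood ratio test of edgeR, 254 by the exact test and 223 after removal of trends with GC content and gene length. The other scalings, the minimum of 10 counts and DESeq2 gave 116 to 175. The cause was not tested. Leaving out 1 sample gave from 77, without AZD7762 replicate 1, to 168. Same-numbered samples correlated in their deviations from the group means with r of 0.0533, 0.124 and 0.21, and differently numbered ones with r from -0.253 to 0.175. The numbers were not taken as pairs in the main fit, and whether the samples were paired was not tested. DMSO replicate 1 and AZD7762 replicate 2 correlated better with each other (0.175) than with their own numbers. With the replicate block 378 genes were called, and 493 with the block and removal of these trends. Under the latter 2 of the other clock genes were called, CSNK2B (log2 fold change 0.25) and TSC22D3 (-0.21), and 0 in the other 16. In the order of FPKM, 6 genes changed place with the coding length, and from 0 to 2 (PER1 and CRY2) when a DMSO sample was left out, 2 of them without replicate 3. DBP, BHLHE40 and BHLHE41 had the fewest counts and the largest standard errors of the 10, and BHLHE40 and DBP also the largest spread between replicates (biological coefficient of variation 12.1% and 12.0%).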
